A study of Mus musculus with 36 samples.

Results

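The proteins that coat, enlarge and release lipid droplets were followed at the RNA level through 10 genes, namely the perilipins Plin2, Plin3, Plin4 and Plin5, the CIDE genes Cidea, Cideb and Cidec, the lipase inhibitor Hilpda, and the FIT genes Fitm1 and Fitm2. They were taken by gene symbol from a table of 49315 genes, and all 10 were found. Of these genes 16638 reached at least 1 TPM (transcripts per 1000000 transcripts, a level corrected for gene length and library total) in at least 4 libraries and were tested, and the 10 were among them. Cidea reached 1 TPM in 12 of 36 libraries and was listed at 0 in 10, so it was tested through the groups in which it was high.

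The material was liver polyA RNA of 36 male mice, 11 to 12 weeks old, in 9 groups of 4. The liver X receptor LXRalpha, a nuclear receptor for oxidised cholesterol, has tryptophan (W) at residue 441, and CRISPR had replaced it by phenylalanine (F) on one copy in W/F mice and on both in F/F mice, while W/W mice were the controls. Each genotype was kept on normal chow, or for 4 weeks on the Teklad TD.96121 diet, which is rich in fat and cholesterol and promotes metabolic dysfunction-associated steatohepatitis (MASH). The mice on the MASH diet received, each day of the last 2 weeks, either vehicle or the synthetic LXR agonist T0901317 at 10 mg/kg by oral gavage, and these groups are called vehicle and T0901317 below. The chow mice were an independent cohort and their labels name no gavage, so diet, cohort and gavage cannot be told apart. The labels name no tissue restriction of the mutation, no strain, litter or date, and T0901317 also binds LXRbeta.

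Lipid droplets are stores of triglyceride and cholesteryl ester that bud from the endoplasmic reticulum and carry a single phospholipid layer with a protein coat. Perilipins cover the surface and limit the access of lipases, CIDE proteins join droplets and let lipid pass from smaller to larger ones, Hilpda inhibits the triglyceride lipase ATGL (encoded by Pnpla2), and FIT proteins act where droplets emerge. In hepatocytes Plin2 is the main coat protein of stored fat, and Cidea and Cidec are known to be higher in fatty liver, where Cideb also serves the loading of very low density lipoprotein.

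The 250 bases before the annotated start are shown for 4 genes, Plin2 and Cidec because they rose most in TPM with T0901317 in W/W livers, Plin3 and Hilpda because the diet raised them in mutant livers. The sequences are from RefSeq on GRCm38.p6, read 5′ to 3′ on the gene's strand, and the capitals mark a nuclear receptor half-site, AGGTCA on either strand, in the Plin2 line and the hypoxia response core ACGTG in the line of 30 bases around it.
Plin2, chr4:86670060-86670309, minus strand: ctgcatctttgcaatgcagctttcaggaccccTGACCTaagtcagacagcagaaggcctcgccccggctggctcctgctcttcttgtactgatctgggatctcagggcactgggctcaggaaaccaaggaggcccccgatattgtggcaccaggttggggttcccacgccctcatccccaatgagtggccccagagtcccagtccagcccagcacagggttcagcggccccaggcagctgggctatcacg
Cidec, chr6:113435761-113436010, minus strand: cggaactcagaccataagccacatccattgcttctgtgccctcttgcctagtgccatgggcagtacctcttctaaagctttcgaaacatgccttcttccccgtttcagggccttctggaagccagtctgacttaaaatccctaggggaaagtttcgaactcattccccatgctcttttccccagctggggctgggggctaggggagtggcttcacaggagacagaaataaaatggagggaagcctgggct
Plin3, chr17:56290512-56290761, minus strand: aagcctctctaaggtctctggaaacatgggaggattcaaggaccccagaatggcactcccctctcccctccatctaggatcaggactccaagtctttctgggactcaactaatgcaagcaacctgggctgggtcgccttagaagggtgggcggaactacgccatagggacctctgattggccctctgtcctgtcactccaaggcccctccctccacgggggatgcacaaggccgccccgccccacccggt
Hilpda, chr6:29272238-29272487, plus strand: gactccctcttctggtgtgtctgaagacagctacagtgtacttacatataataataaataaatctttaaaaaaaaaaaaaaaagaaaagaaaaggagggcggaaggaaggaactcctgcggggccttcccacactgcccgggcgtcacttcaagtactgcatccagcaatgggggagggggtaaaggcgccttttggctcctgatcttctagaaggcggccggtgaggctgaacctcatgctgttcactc
Hilpda, before its second start, chr6:29272571-29272600, plus strand: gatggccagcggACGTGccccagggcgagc
RefSeq promoters were matched for 9 of the 10 genes, with 12 starts, and motifs were searched on both strands in the 250 bases before each start. The half-site AGGTCA was present before Plin2 and Plin5, and in 14.0% of all 32851 promoters of that length. Its direct repeats with a spacer of 1 base (AGGTCA, any base, AGGTCA, in 0.0335% of promoters) or 4 bases (AGGTCA, any 4 bases, AGGTCA, in 0.0152%) were found before none of the 9 genes. The core ACGTG was found before Hilpda alone among them and in 16.6% of promoters, and the E-box CACGTG, which contains that core, before none of them and in 6.02% of promoters. These are matches of letters in short windows and no binding was measured.

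The library depth, estimated from the spacing of low TPM values, was 18.1 to 35.8 M reads (M, 1000000) with a median of 23.9 M. Scaling mattered for many values. The median of all tested genes on vehicle lay above W/W by 0.52 (log2) for W/F and by 0.70 for F/F, and the T0901317 response in W/F had a median of -0.49. Each comparison was therefore also made after rescaling the libraries to the median gene, with factors of 0.693 to 1.48, and the value after rescaling is given where it changed a call. Among cell type markers, a summed list of 6 hepatocyte genes was 64228 to 85383 TPM in W/W and 33632 to 36789 TPM in F/F livers on vehicle, and a list of 7 genes of lipid-laden macrophages (Gpnmb, Trem2, Cd9, Lgals3, Itgax, Spp1 and Cd68) on vehicle was 4571 to 5240.3 TPM in F/F, 2350.1 to 2704 TPM in W/F and 79.9 to 90.9 TPM in W/W. In whole liver, fewer cells of a type and less RNA per cell cannot be told apart. The adipocyte genes Adipoq, Plin1, Lep and Retn stayed under 1 TPM in all 36 libraries. The full adipocyte list of 7 genes, which adds Adig, Fabp4 and Cfd, did not stay low. Its sum was 3.83 to 14.6 TPM on chow and 110.3 to 394 TPM on vehicle in W/W. With T0901317 in W/F it was 63.3 to 223 TPM, and the other groups are given with Cidec. One W/F library with T0901317, replicate 2, had 505 TPM of the macrophage list where the other 3 had 136 to 184 TPM, and 1 F/F library on vehicle, replicate 3, had 105 TPM of 6 skeletal muscle genes where the other 3 had 2.56 to 3.44 TPM. Leaving out the first of these ended 1 call given below, Cidea for T0901317 in W/F (-0.78), and leaving out the second ended 4: Fitm1 for T0901317 in F/F (0.82), Cidea and Cideb in F/F against W/W on vehicle (0.62 and -0.16), and Cideb for the diet in F/F (-0.15).

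**Figure D1:**
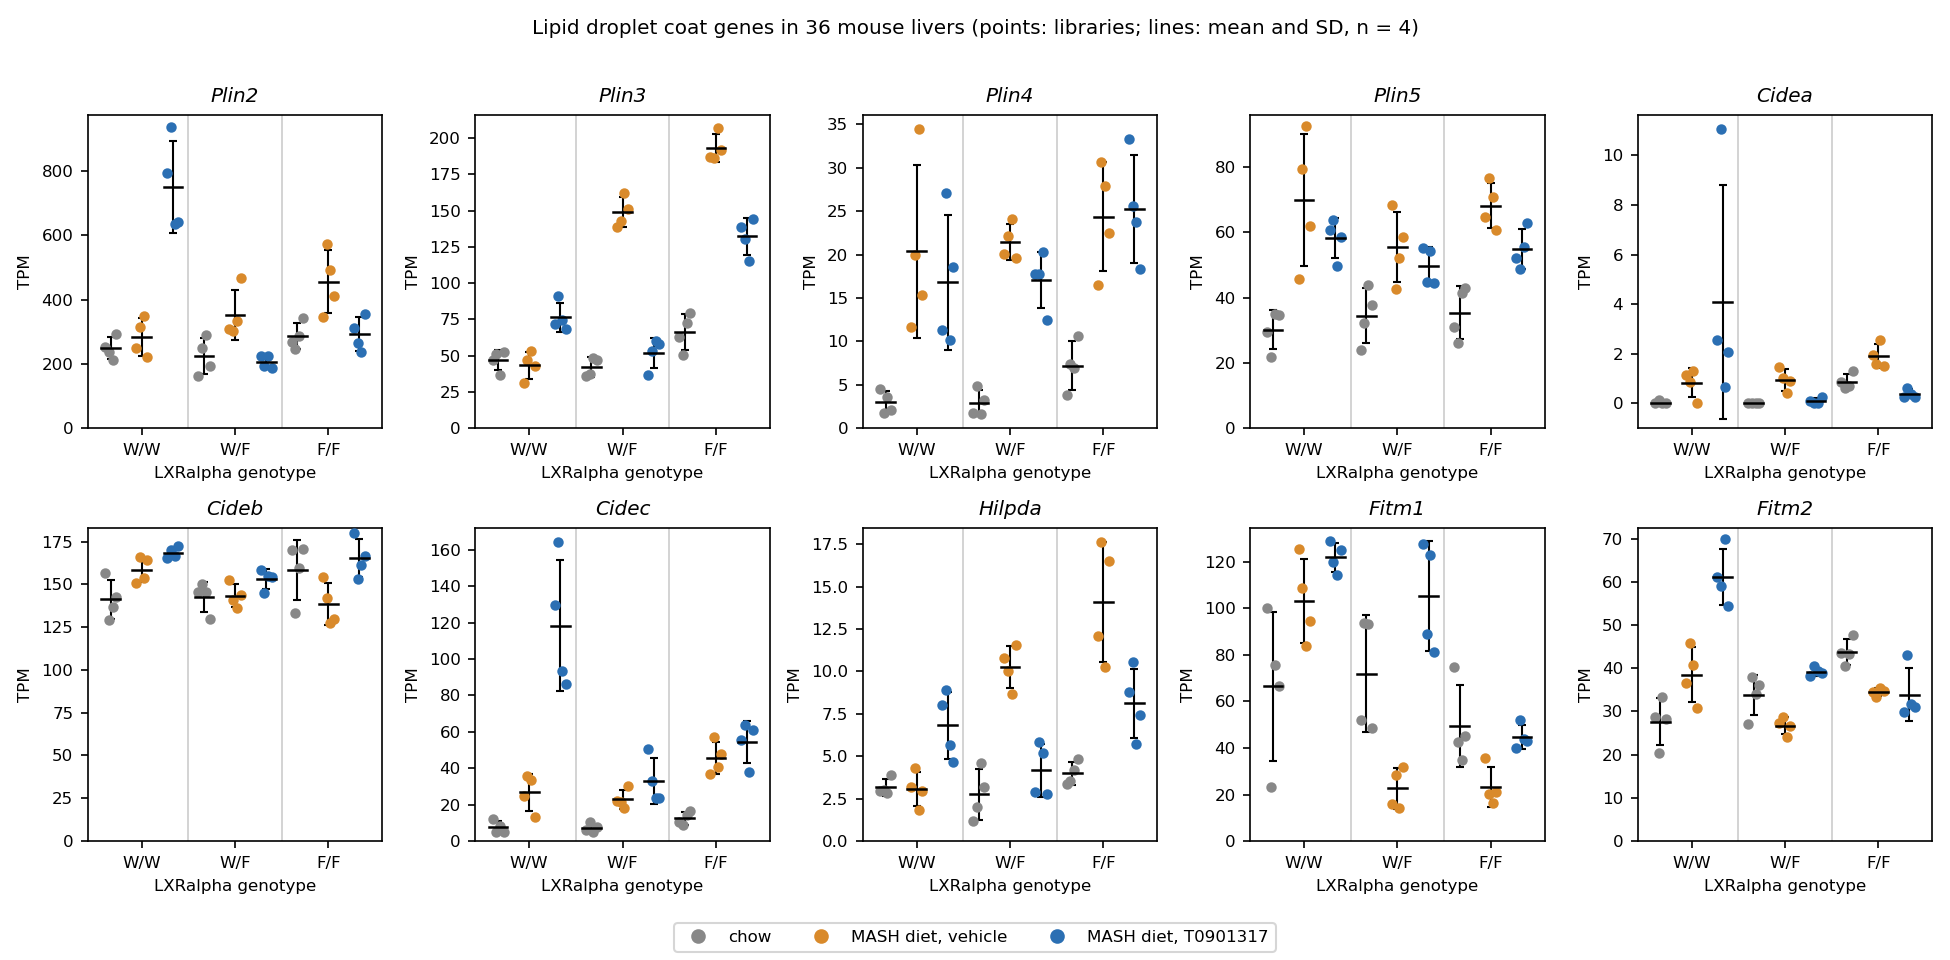
TPM of each of the 10 genes (y axis, linear, own scale per panel) in 36 livers by genotype and treatment; points are single libraries, black lines the mean and SD of 4. The W/W livers with T0901317 are the highest group for Plin2, Cidec and Fitm2, and the vehicle groups of both mutant genotypes are the 2 highest for Plin3 and Hilpda and the 2 lowest for Fitm1.

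In W/W livers T0901317 raised 6 of the 10 genes, Plin2, Plin3, Cidea, Cidec, Hilpda and Fitm2, and lowered none, where 10.8% of all tested genes were called. The calls of Cidea and Hilpda among these were lost in a fit of the 2 groups alone and without single libraries, named in their sections. In W/F livers Plin3 and Hilpda were instead lower with the compound than on vehicle, under both scalings. On vehicle, the mean TPM of Plin3 and Hilpda in mutant livers was 3.35 to 4.60 times that of W/W, and Fitm1 averaged 22.6 and 23.3 TPM in W/F and F/F where W/W had 103 TPM. The sections that follow give these values gene by gene, as TPM of replicates 1 to 4 and then as fitted log2 fold changes ± SE from limma on log2(TPM + 1), with Benjamini-Hochberg adjustment over the 16638 genes and a threshold of 0.05.

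Plin2, which coats droplets in most cells and is the most abundant of the 10 genes in these livers, was at 254, 238, 213 and 292 TPM in W/W mice on chow, 248, 314, 349.96 and 223 TPM on vehicle and 794, 937, 635 and 643 TPM with T0901317. Every T0901317 library lay above all libraries of the other 8 groups. In W/F mice Plin2 was at 162, 249.9, 289 and 193 TPM on chow, 309.6, 301, 333 and 466 TPM on vehicle and 224, 193, 226 and 185 TPM with T0901317. In F/F mice Plin2 was at 269, 247, 288 and 343 TPM on chow, 347, 573, 494 and 410.2 TPM on vehicle and 312, 264, 235 and 357 TPM with T0901317. In W/F the T0901317 libraries were below all vehicle libraries, whereas in F/F the groups overlapped. The mean with T0901317 in W/W was 752 ± 143 TPM (SD, n = 4), 2.65 times that on vehicle, with a fitted change of 1.41 ± 0.18 (limma adjusted p = 1.89e-06). The changes of -0.75 in W/F and -0.63 in F/F passed the test as deposited (limma adjusted p = 0.000662 and 0.0088) but not after rescaling (-0.14 and -0.36), and the F/F call was also lost without F/F T0901317 replicate 3 (-0.54). The response itself differed from that of W/W under both scalings, by -2.16 ± 0.26 in W/F and -2.04 ± 0.26 in F/F as deposited (limma adjusted p = 6.8e-08 and 1.48e-06) and by -1.48 and -1.70 after rescaling. With vehicle against chow the change was 0.17 in W/W, which did not pass, and the rises of 0.67 in W/F and 0.65 in F/F passed as deposited but not after rescaling (0.16 and 0.30). In F/F against W/W on vehicle Plin2 was 0.68 as deposited (limma adjusted p = 0.00125) and -0.18 after rescaling, a change of sign that was not called (limma adjusted p = 0.428).

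Plin3, a perilipin that moves between cytosol and young droplets, was at 46.7, 50.7, 36.8 and 52.6 TPM in W/W mice on chow, 31.1, 46.8, 53.1 and 42.5 TPM on vehicle and 71.5, 90.9, 74.5 and 68 TPM with T0901317. Its chow and vehicle groups overlapped, and the T0901317 group lay above both. In W/F mice Plin3 was at 35.6, 37, 48.2 and 47.2 TPM on chow, 139, 143, 162 and 151 TPM on vehicle and 36.6, 53.4, 59.9 and 57.6 TPM with T0901317. In F/F mice Plin3 was at 63, 50.3, 72.5 and 79.1 TPM on chow, 187, 186, 207 and 192 TPM on vehicle and 139, 131, 115 and 144 TPM with T0901317. In both mutant genotypes the vehicle group stood above chow and above T0901317 with no overlap. The vehicle means of Plin3 were 193 ± 9.76 TPM (F/F), 149 ± 10.4 TPM (W/F) and 43.4 ± 9.28 TPM (W/W; SD, n = 4 each), so W/F was 3.43 times and F/F 4.45 times W/W. The fitted differences from W/W were 1.78 ± 0.15 and 2.15 ± 0.15 (limma adjusted p = 4.09e-11 and 2.74e-13), and 1.12 and 1.30 after rescaling, both called. The diet rise was 1.81 in W/F and 1.55 in F/F against -0.12 in W/W, and the differences of 1.93 ± 0.22 and 1.67 ± 0.22 passed (limma adjusted p = 3.51e-08 and 1.17e-06), also after rescaling. T0901317 raised Plin3 by 0.82 ± 0.15 in W/W (limma adjusted p = 0.000414) and Plin3 fell by 1.52 with it in W/F, where rescaling left -0.92. The fall in F/F, -0.55, was not called after rescaling (-0.28, limma adjusted p = 0.121). Both responses differed from that of W/W, by -2.34 ± 0.22 and -1.36 ± 0.22, and by -1.67 and -1.03 after rescaling. The lipid-laden macrophage list, given above for vehicle, moved in parallel: it was 72 to 179 TPM on chow and 136 to 505 TPM with T0901317 in W/F, and 831 to 1187 and 1198 to 2312 TPM in F/F, and its part in the Plin3 result was not tested. The summed lists of stellate cell, bile duct and neutrophil genes were also higher on vehicle in mutant livers, unlike those of resident macrophage genes in F/F and endothelial genes. For W/W, W/F and F/F the vehicle medians of stellate cell genes were 32.3, 326 and 604 TPM. Bile duct genes, which share Spp1 with the macrophage list, were at 55.3, 1214 and 3394 TPM. Neutrophil genes were at 3.28, 80.8 and 264 TPM. Resident macrophage genes were at 189, 381 and 43.8 TPM, and endothelial genes at 65.2, 44.8 and 57.7 TPM. The part of these lists was not tested either. The F/F difference on chow, 0.49, was lost after rescaling (0.11) and without F/F chow replicate 4 (0.40) or W/W chow replicate 3 (0.38), and that with T0901317, 0.79 (limma adjusted p = 5.75e-05), was 0.27 and not called after rescaling.

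Plin4 and Plin5 were higher on the MASH diet in all 3 genotypes as deposited, and Plin5 in W/F was not called after rescaling. Plin4, a perilipin of small, new droplets, ranged from 1.62 to 10.6 TPM over the 12 chow libraries and from 10.2 to 34.5 TPM over the 24 other libraries. In W/W mice Plin4 was at 4.49, 1.78, 3.53 and 2.08 TPM on chow and 11.6, 19.97, 34.5 and 15.4 TPM on vehicle, with no overlap. Its rise was 2.37 ± 0.31 in the W/W mice, then 2.61 ± 0.31 (W/F) and 1.67 ± 0.31 (F/F; limma adjusted p = 6.6e-06, 2.21e-08 and 4.17e-05), and 2.54, 2.17 and 1.32 after rescaling. T0901317 changed it by -0.26, -0.33 and 0.05 in the same order, none of which passed. F/F livers on chow, at 3.76, 7.37, 6.91 and 10.6 TPM, were 1.03 above W/W (limma adjusted p = 0.00842), with overlapping groups, and 0.72 after rescaling, which was not called. The diet response of Plin4 in F/F differed from that of W/W by -0.70, not called, and by -1.22 after rescaling, which was called (limma adjusted p = 0.0363).

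Plin5, which ties droplets to mitochondria in tissues that burn fat, was at 29.4, 21.9, 35 and 34.6 TPM in W/W mice on chow, 45.8, 79.3, 92.6 and 62.1 TPM on vehicle and 60.7, 63.9, 49.7 and 58.7 TPM with T0901317. Both MASH diet groups lay above chow and overlapped each other. It rose with the diet by 1.16 ± 0.19 in W/W and 0.95 ± 0.19 in F/F under both scalings (limma adjusted p = 0.000139 and 9.2e-05), and by 0.68 ± 0.19 in W/F as deposited, where rescaling left 0.19 and no call. Against W/W on vehicle Plin5 was -0.30 in W/F and 0.01 in F/F, neither called, while after rescaling both were lower, at -0.95 and -0.85 (limma adjusted p = 8.23e-05 and 0.000285). No T0901317 response of Plin5 passed as deposited, and 1 did after rescaling, 0.45 in W/F (limma adjusted p = 0.0456). Rescaling also brought 3 further calls of Plin5: against W/W with T0901317 it was -0.60 in F/F (-0.08 as deposited), and the W/F responses differed from those of W/W by 0.74 for T0901317 and -1.10 for the diet (0.08 and -0.48 as deposited).

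The perilipin mix of the liver changed with these levels. Plin2 made up 68.2% ± 3.88 (SD, n = 4) of the summed TPM of the 4 perilipins in W/W livers on vehicle and 83.1% ± 1.36 with T0901317. In F/F livers its share was 61% ± 4.05 on vehicle and 57.6% ± 2.79 with T0901317. On vehicle Plin3 held 26.5% ± 3.79 in F/F and 26% ± 3.08 in W/F, where it held 10.5% ± 1.36 in W/W. These shares do not depend on the library scaling, since every perilipin of a library is divided by the same factor.

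**Figure D2:**
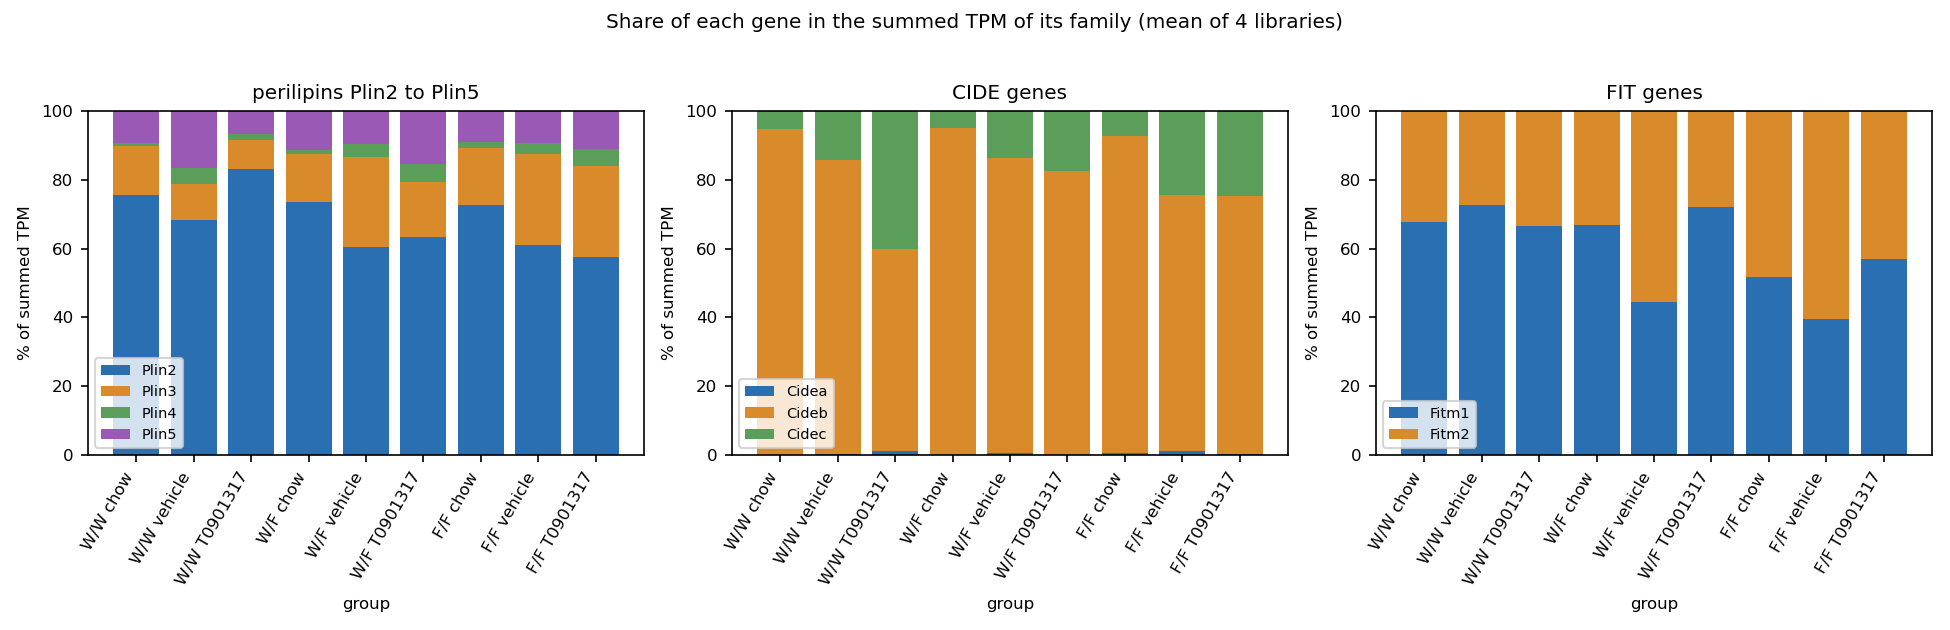
Mean share (y axis, % of the family's summed TPM, 4 libraries per bar) of each perilipin, CIDE and FIT gene in the 9 groups of genotype and treatment. Plin2 has its largest perilipin share in W/W with T0901317, Plin3 reaches about 26% in W/F vehicle and in F/F vehicle and T0901317, and Cidec reaches 40.0% of the CIDE sum in W/W with T0901317.

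Cidec, which sits where droplets touch and drives their growth into large ones, had the widest range of group means among the 9 genes detected in every library, 16.3 times from lowest to highest. In W/W mice Cidec was at 12.1, 4.76, 8.55 and 5.21 TPM on chow, 24.6, 35.8, 33.5 and 13.2 TPM on vehicle and 129.8, 164, 93.1 and 86.2 TPM with T0901317. The 3 groups stepped up without overlap, and the T0901317 libraries were above every library of the other groups. In W/F mice Cidec was at 5.94, 10.7, 4.81 and 7.54 TPM on chow, 21.8, 21.7, 18 and 30.4 TPM on vehicle and 50.7, 33, 23.9 and 23.7 TPM with T0901317. In F/F mice Cidec was at 10.6, 8.83, 14.2 and 16.5 TPM on chow, 36.9, 57, 40.5 and 47.7 TPM on vehicle and 55.5, 63.9, 38.1 and 61 TPM with T0901317. In both mutant genotypes vehicle was above chow without overlap, and vehicle and T0901317 overlapped. The T0901317 response was 2.15 ± 0.30 in W/W (limma adjusted p = 5.17e-06), from 26.8 ± 10.3 to 118 ± 36 TPM (SD, n = 4 each). It was 0.45 in W/F and 0.25 in F/F, neither called as deposited, and after rescaling the W/F value of 1.03 was called (limma adjusted p = 0.00623). Compared with the W/W response, that of F/F differed by -1.89 ± 0.42 (limma adjusted p = 0.00138; after rescaling -1.57). In W/F that difference was -1.70 ± 0.42 as deposited (limma adjusted p = 0.000966) and -1.05 after rescaling, which missed the threshold (limma adjusted p = 0.0516). The diet raised Cidec by 1.67 ± 0.30 (W/W), 1.57 ± 0.30 (W/F) and 1.80 ± 0.30 (F/F), called under both scalings, and no difference between these responses passed under either scaling. The W/W diet call was lost in a fit of those 2 groups alone (limma adjusted p = 0.0552). On vehicle Cidec in F/F was 0.82 above W/W as deposited (limma adjusted p = 0.0138), was -0.03 after rescaling, and lost the call without W/W vehicle replicate 4 (0.52). In W/F the same comparison gave -0.14, not called, and -0.78 after rescaling, which was called as lower (limma adjusted p = 0.0346). With T0901317 both mutant genotypes were below W/W, W/F by -1.84 ± 0.30 and F/F by -1.08 ± 0.30 (limma adjusted p = 5.41e-05 and 0.00228). A summed list of 7 adipocyte genes moved with the diet in W/W, from 3.83 to 14.6 TPM on chow to 110.3 to 394 TPM on vehicle and 89.6 to 129 TPM with T0901317. In the same order it was 4.53 to 15.8, 17.5 to 28.4 and 63.3 to 223 TPM in W/F, and 7.43 to 10.3, 25 to 29.2 and 7.82 to 15.9 TPM in F/F. In W/W the sum came from Cfd and Fabp4, while Adipoq, Plin1, Lep, Retn and Adig were under 1 TPM, and its part in the CIDE results was not tested.

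Cidea, a CIDE gene known from brown fat, was the rarest of the 10 genes and was listed at 0 in all 4 W/F libraries on chow. In W/W mice Cidea was at 0, 0.113, 0 and 0 TPM on chow, 1.15, 0.87, 1.3 and 0 TPM on vehicle and 2.56, 11.1, 0.674 and 2.06 TPM with T0901317. The groups on vehicle and T0901317 overlapped, and replicate 2 with T0901317 held more than all other libraries. The rise of 1.14 ± 0.32 (limma adjusted p = 0.0173) was 0.59 without that library, 0.88 without W/W vehicle replicate 4, and in neither case called, nor was it called in a fit of the 2 groups alone (limma adjusted p = 0.283). In W/F mice Cidea was at 1.44, 1.01, 0.40 and 0.882 TPM on vehicle and 0.076, 0, 0 and 0.245 TPM with T0901317. In F/F mice Cidea was at 0.848, 0.63, 0.70 and 1.3 TPM on chow, 1.95, 1.58, 2.55 and 1.51 TPM on vehicle and 0.251, 0.631, 0.389 and 0.237 TPM with T0901317. In both mutant genotypes the T0901317 libraries were below all vehicle libraries, and the falls of -0.82 and -1.07 were called as deposited but not after rescaling (-0.65 and -0.81). The 8 mutant libraries with T0901317 held about 0 to 5.75 reads of Cidea by the depth estimate, so single reads set these values. The responses differed from that of W/W by -1.96 ± 0.45 and -2.21 ± 0.45 (limma adjusted p = 0.000519 and 0.000694), called under both scalings. F/F exceeded W/W by 0.85 on chow and 0.72 on vehicle as deposited, with no overlap of libraries, and neither was called after rescaling (0.76 and 0.24). The chow call was also lost without F/F replicate 1 or 4 or W/W replicate 1, 3 or 4 (0.75 to 0.85), and the vehicle call without F/F replicate 1 or 3 or W/W replicate 2 or 4 (0.45 to 0.75). The W/F fall with T0901317 was lost without T0901317 replicate 2 or 3 or vehicle replicate 1 or 2 (-0.79 to -0.70). With the diet Cidea rose by 0.92 in W/F (limma adjusted p = 0.014) and 0.78 after rescaling, also called, from a chow group at 0 in all 4 libraries. The diet values of 0.76 in W/W and 0.63 in F/F were not called under either scaling. The W/W value was called without W/W vehicle replicate 4 (1.03) or with a pseudocount of 0.1 (2.41), and the F/F value in a fit of the 2 groups alone.

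Cideb, the CIDE gene of normal hepatocytes, was the steadiest of the 10 in TPM as deposited, with group means from 138 to 169 TPM. With T0901317 Cideb changed by 0.09 in W/W, which did not pass. In W/F the change was 0.09, not called as deposited, and 0.70 after rescaling, which was called (limma adjusted p = 1.61e-07). Cideb rose in F/F livers by 0.26 ± 0.07 (limma adjusted p = 0.00927; after rescaling 0.52), with overlapping groups. With the diet Cideb in F/F was -0.19 (limma adjusted p = 0.0302; after rescaling -0.54), and as deposited this call was lost in a fit of the 2 groups alone and without F/F chow replicate 1, 3 or 4 or vehicle replicate 3 or 4 (-0.19 to -0.15). The diet values of 0.17 in W/W and 0.01 in W/F were not called, and became 0.30 and -0.49 after rescaling, both called. Because Cideb stayed level in TPM while the median gene rose in mutant livers on vehicle, rescaling turned differences from W/W of -0.14 in W/F and -0.20 in F/F into -0.80 and -1.06, both called. As deposited the F/F value was called too, but not without F/F vehicle replicate 3 or 4 (-0.16 and -0.17). Rescaling brought 4 more calls of Cideb: F/F against W/W with T0901317 (-0.03 to -0.56), the T0901317 responses of W/F and F/F relative to that of W/W (0.01 to 0.68 and 0.17 to 0.50), and the diet response of W/F (-0.16 to -0.79). That of F/F differed under both scalings (-0.36 and -0.84). On chr14 its exons lie opposite to those of Nop9 over 76.3% of their length in GENCODE M21 (gene body 55754050 to 55758458, minus strand), and since no strand setting is given in the sources used here, reads of the 2 genes cannot be told apart. Cidec accounted for 5.04% ± 1.8 (SD, n = 4) of the summed CIDE TPM in W/W livers on chow, 14.2% ± 4.87 on vehicle and 40.00% ± 6.7 with T0901317, against 24.7% ± 4.45 in F/F with T0901317, and nearly all of the rest was Cideb.

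Hilpda, a small hypoxia-inducible droplet protein that inhibits ATGL, was a low gene here, at 1.2 to 17.6 TPM. In W/W mice Hilpda was at 2.95, 2.99, 2.85 and 3.91 TPM on chow, 3.18, 4.31, 1.83 and 2.94 TPM on vehicle and 8.05, 8.92, 5.69 and 4.69 TPM with T0901317. The T0901317 libraries lay above the others. In W/F mice Hilpda was at 1.2, 2.03, 4.62 and 3.17 TPM on chow, 10.8, 10.02, 8.64 and 11.5 TPM on vehicle and 2.89, 5.82, 5.2 and 2.76 TPM with T0901317. In F/F mice Hilpda was at 3.35, 3.55, 4.22 and 4.82 TPM on chow, 12.1, 17.6, 10.2 and 16.5 TPM on vehicle and 8.8, 10.5, 5.75 and 7.43 TPM with T0901317. Vehicle was above chow without overlap in both mutant genotypes, and above T0901317 without overlap in W/F only. Compared with W/W on vehicle (3.06 ± 1.02 TPM, SD, n = 4), Hilpda was 3.35 times as high in W/F and 4.6 times as high in F/F, with fitted differences of 1.5 ± 0.24 and 1.90 ± 0.24 (limma adjusted p = 3.07e-06 and 3.19e-08) and of 0.95 and 1.15 after rescaling. The diet response exceeded that of W/W by 1.73 ± 0.34 in W/F and 1.65 ± 0.34 in F/F, called under both scalings. T0901317 raised Hilpda by 0.95 ± 0.24 in W/W (limma adjusted p = 0.00838), a call lost in a fit of the 2 groups alone (limma adjusted p = 0.0531) and without W/W vehicle replicate 3 (0.78). It fell with T0901317 by 1.17 in W/F on the log2 scale (limma adjusted p = 0.000108), where rescaling left -0.65, still called, and the F/F value of -0.72 was not called after rescaling (-0.47) or without F/F T0901317 replicate 3 or 4 or vehicle replicate 2 or 4 (-0.69 to -0.59). The responses differed from W/W by -2.11 ± 0.34 and -1.67 ± 0.34, and by -1.57 and -1.39 after rescaling. The lipid-laden macrophage, stellate cell, bile duct and neutrophil lists described for Plin3 were, like Hilpda, higher on vehicle in mutant livers. Their part in the Hilpda result was not tested.

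**Figure D3:**
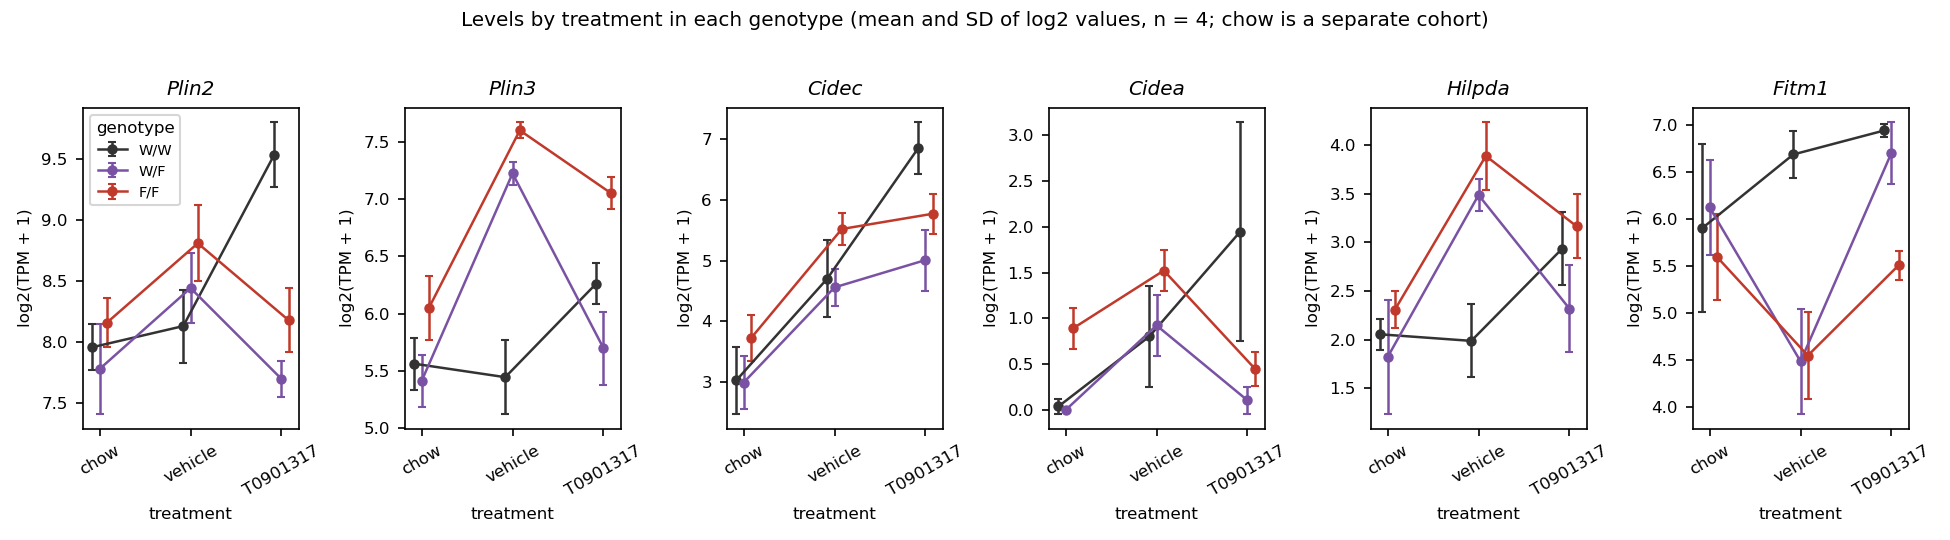
Mean and SD (n = 4) of log2(TPM + 1), y axis, on chow, vehicle and T0901317 (x axis, the lines only join groups and chow is a separate cohort) for 6 genes in W/W, W/F and F/F mice, on the scale as deposited. From vehicle to T0901317 the W/W line rises for Plin2, Plin3, Cidec, Cidea and Hilpda, while the mutant lines fall for all of these except Cidec.

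Fitm1, the FIT gene known mainly from muscle, was well expressed in these livers at 14.2 to 129 TPM, while the 6 muscle genes Acta1, Ckm, Myh4, Myl1, Tnnt3 and Tnni2 together stayed at or under 3.44 TPM in 35 libraries. In W/W mice Fitm1 was at 100.04, 23.4, 75.7 and 66.7 TPM on chow, 126, 109, 83.7 and 94.5 TPM on vehicle and 129, 119.9, 114 and 125 TPM with T0901317. These groups overlapped, with 1 chow library far below the rest. In W/F mice Fitm1 was at 51.9, 93.8, 93.3 and 48.7 TPM on chow, 16, 28.5, 14.2 and 31.9 TPM on vehicle and 128, 88.9, 123 and 81 TPM with T0901317. In F/F mice Fitm1 was at 74.9, 42.5, 34.9 and 45.1 TPM on chow, 35.7, 20.3, 16.2 and 21 TPM on vehicle and 39.8, 51.8, 44.1 and 43.1 TPM with T0901317. In W/F the vehicle group was the lowest without overlap, and in F/F it was below T0901317 without overlap and overlapped chow by 1 library. The F/F library with 105 TPM of the 6 muscle genes, replicate 3 on vehicle, had 16.2 TPM of Fitm1, and the part of muscle RNA in the Fitm1 values was not tested. Against W/W on vehicle (103 ± 18.2 TPM, SD, n = 4), Fitm1 was -2.20 ± 0.32 in W/F and -2.14 ± 0.32 in F/F (limma adjusted p = 4.7e-07 and 4.42e-07), and -2.85 and -2.98 after rescaling. The sum of 6 hepatocyte genes was 55644 to 63549.9 TPM in W/F on vehicle beside the ranges given above for W/W and F/F, and its part in the Fitm1 result was not tested. With T0901317 Fitm1 rose by 2.22 ± 0.32 in W/F and 0.96 ± 0.32 in F/F (limma adjusted p = 5.33e-07 and 0.0196), the latter lost without F/F vehicle replicate 3 (0.82). Means with T0901317 were then 105 ± 23.6 TPM in W/F and 122 ± 6.2 TPM in W/W, with a fitted difference of -0.24 ± 0.32 that did not pass. In F/F it stayed -1.43 ± 0.32 from W/W (limma adjusted p = 0.000263). The T0901317 response differed from W/W by 1.96 ± 0.45 in W/F (limma adjusted p = 0.000432), and the difference of 0.71 in F/F did not pass. The diet response differed by -2.42 ± 0.45 in W/F and -1.83 ± 0.45 in F/F (limma adjusted p = 4.68e-05 and 0.00157).

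Fitm2, the FIT gene of most tissues, was at 28.6, 20.3, 33.5 and 28.2 TPM in W/W mice on chow, 36.5, 45.8, 40.9 and 30.7 TPM on vehicle and 61.1, 59, 70.01 and 54.4 TPM with T0901317. The T0901317 group was above every library of the other 8 groups. Its rise was 0.66 ± 0.12 in W/W (limma adjusted p = 0.000392) and 0.54 ± 0.12 in W/F (limma adjusted p = 0.000356), where the libraries went from 27.4, 28.7, 24 and 26.7 TPM on vehicle to 38.2, 40.4, 39.3 and 39 TPM. In F/F the change was -0.04, not called, and its response differed from that of W/W by -0.70 ± 0.18 as deposited (limma adjusted p = 0.00375), which was not called after rescaling (-0.38). The diet response of Fitm2 was 0.47 in W/W and -0.32 and -0.33 in W/F and F/F. The differences from W/W of -0.79 ± 0.18 and -0.80 ± 0.18 passed under both scalings (limma adjusted p = 0.000406 and 0.000578). The W/W rise was lost without W/W chow replicate 2 (0.33) and in a fit of the 2 groups alone, and the W/F fall without W/F chow replicate 2 or 4 or vehicle replicate 3 and the F/F fall without F/F chow replicate 4 or vehicle replicate 2. F/F livers on chow had 43.6, 40.6, 43.2 and 47.8 TPM, all above W/W, a difference of 0.66 (limma adjusted p = 9.19e-05) that was 0.29 and not called after rescaling. On vehicle the F/F difference was -0.14, not called, and -0.98 after rescaling (limma adjusted p = 9.2e-08), and the W/F response to T0901317 differed from that of W/W by -0.12, not called, and by 0.53 after rescaling, which was called.

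The numbers of the 10 genes called are given beside the share of all 16638 tested genes called in the same comparison. For T0901317 in W/W 6 of 10 were called, all higher, where 10.8% of genes were called, and the median change was 0.74 for the 10 and 0.06 for all genes. After rescaling the count was again 6, beside 13.5% of genes. Both counts include Cidea, which was tested through the groups in which it was high, W/W with T0901317 among them. The calls of Cidea and Hilpda as deposited were lost in a fit of the 2 groups alone. In W/F the same contrast called 6 (2 higher, 4 lower) where 65.9% of genes were called, and after rescaling 7 (5 higher, 2 lower) beside 50.8%. In F/F it called 6 (2 higher, 4 lower) beside 35.1%, and after rescaling 2 (Cideb and Fitm1, both higher) beside 16.3%. The W/F count as deposited and the F/F count after rescaling lie near the share of the table and are no result about the 10 genes.

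The diet contrast in W/W called 4 of 10, all higher (Plin4, Plin5, Cidec and Fitm2), beside 12.9% of genes, and 5 after rescaling beside 15.4%. A fit of the 2 groups alone called 2, without Cidec and Fitm2. The share of all genes in that fit is not given here, so nothing is read from its count. In W/F it called 9 (7 higher, 2 lower) beside 61.0%, and 8 (5 higher, 3 lower) after rescaling beside 54.9%. The W/F libraries were deeper on vehicle (23.5 to 34.5 M reads) than on chow (20.7 to 21.8 M reads), and the part of depth was not tested. In F/F it called 9 (6 higher, 3 lower) beside 55.8%, and 8 (5 higher, 3 lower) after rescaling beside 47.0%. Plin4 and Cidec rose in all 3 genotypes under both scalings.

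Between genotypes on chow, W/F differed from W/W in none of the 10 genes by limma under either scaling, 1 (Fitm2, 0.29) had an unadjusted p under 0.05, and the table had 0.487% of genes called as deposited and 0.601% after rescaling. F/F differed in 4 on chow, all higher (Plin3, Plin4, Cidea and Fitm2), beside 46.7% of genes, and in 0 after rescaling beside 29.9%, with 4 at an unadjusted p under 0.05. The chow count was 2 without F/F chow replicate 4 or without W/W chow replicate 3, and 6 without F/F chow replicate 2. Without W/W chow replicate 2, Fitm1 was called as lower in F/F (-0.74). The share of all genes in these fits is not given here, so nothing is read from the changed counts. On vehicle W/F differed in 4 (Plin3 and Hilpda higher, Fitm1 and Fitm2 lower) beside 68.5%, and in 7 after rescaling (2 higher, 5 lower) beside 53.1%. F/F differed in 7 on vehicle (5 higher, 2 lower) beside 76.5%, and in 6 after rescaling (Plin3 and Hilpda higher, Plin5, Cideb, Fitm1 and Fitm2 lower) beside 59.1%. With T0901317 W/F was lower in 5 (Plin2, Plin3, Cidea, Cidec and Fitm2) beside 9.88% of genes, with the same count after rescaling beside 13.4%. A fit of the 2 groups alone called 3, without Plin3 and Cidea, and the share of all genes in that fit is not given here. In the fit of all groups, Plin3 was called neither without W/F T0901317 replicate 1 (-0.41) nor without W/W T0901317 replicate 2 (-0.48). F/F differed in 6 with T0901317 (Plin3 higher, 5 lower) beside 63.2%, and in 7 after rescaling, all lower, beside 46.9%. As deposited, the F/F counts and the W/F count on vehicle lie near or below the share of the table. So do the F/F counts on chow and on vehicle after rescaling, and none of these is a result about the 10 genes.

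**Figure D4:**
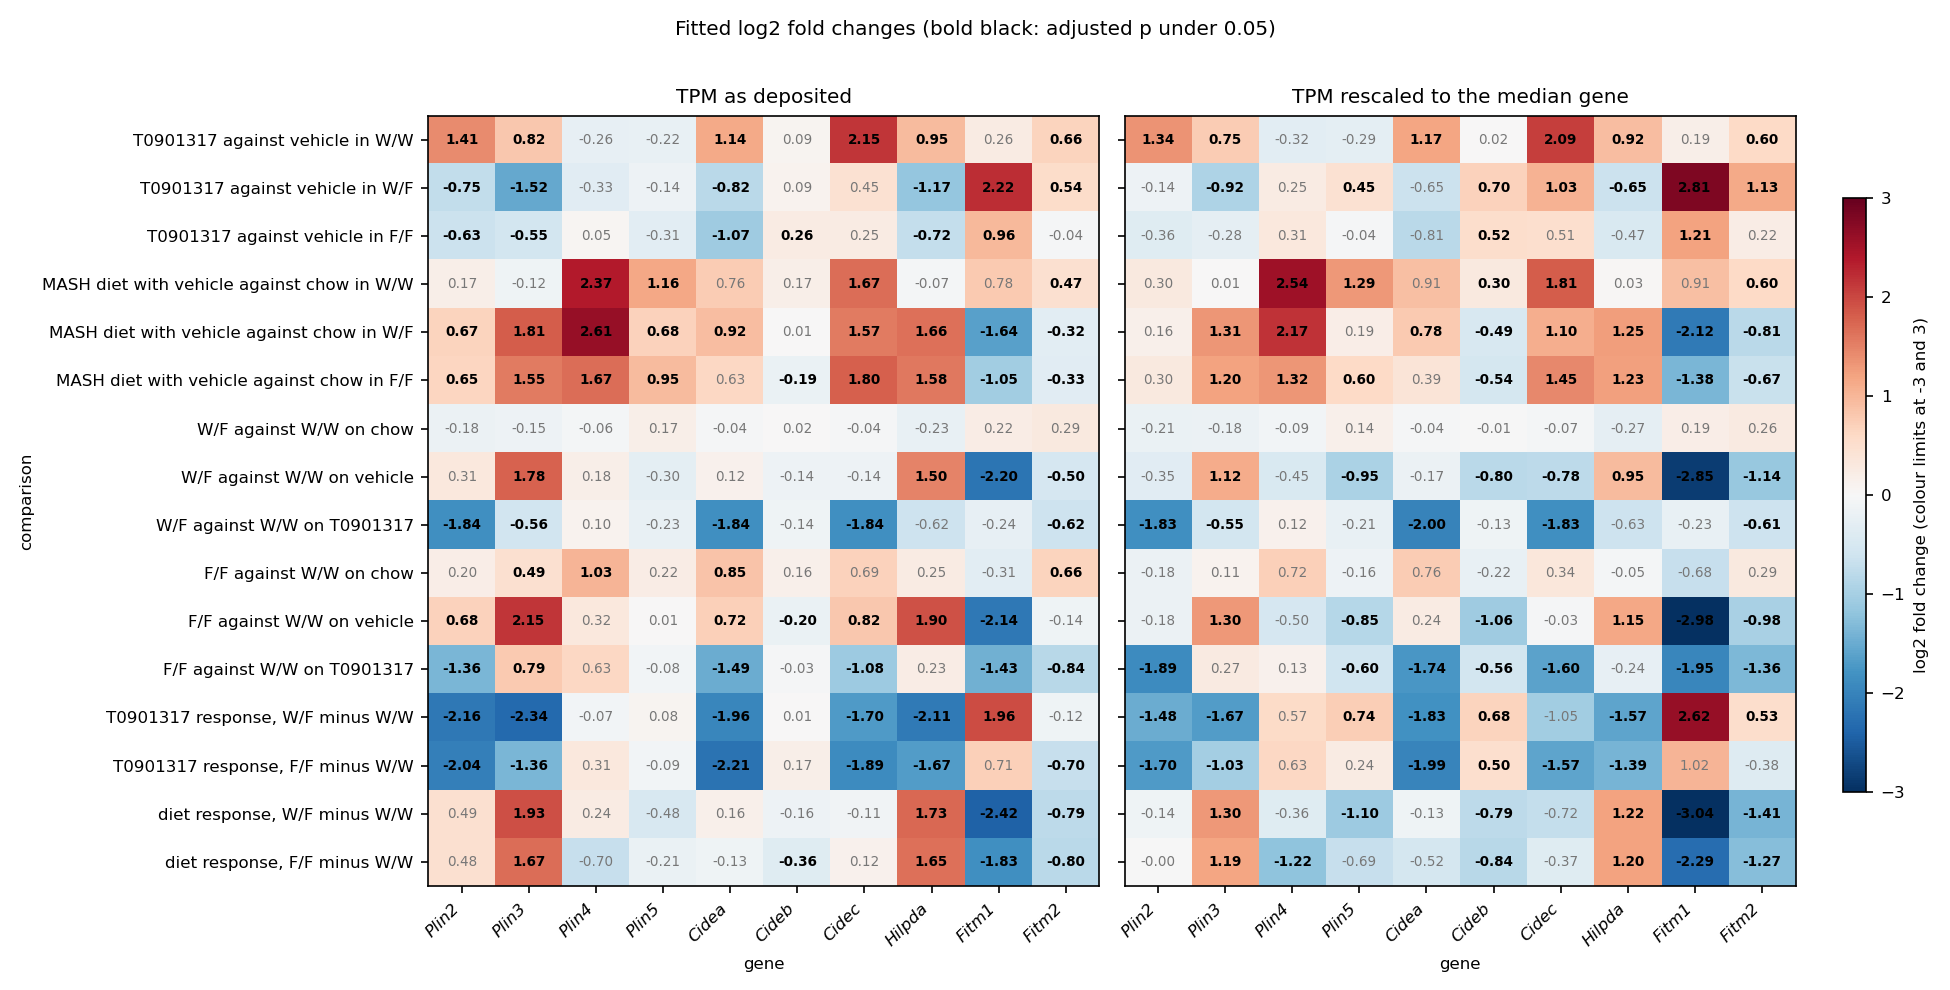
Fitted log2 fold changes (printed values and colour, limits at -3 and 3) of the 10 genes in 16 comparisons, from TPM as deposited (left) and rescaled to the median gene (right); bold black values have a limma adjusted p under 0.05. The W/W row for T0901317 has the same 6 bold genes in both panels, while the rows of F/F against W/W on chow and on vehicle change between them.

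The differences of responses share the W/W vehicle and W/W T0901317 or chow libraries, so the W/F and F/F values are not independent of each other. The T0901317 response in W/F differed from that in W/W in 6 genes (Fitm1 higher, Plin2, Plin3, Cidea, Cidec and Hilpda lower) beside 58.5% of the table, and in 8 (4 in each direction) after rescaling beside 43.9%. In F/F it differed in 6, all lower (Plin2, Plin3, Cidea, Cidec, Hilpda and Fitm2), beside 30.4%, and in 6 (1 higher, 5 lower) after rescaling beside 17.4%. The diet response differed in 4 in W/F (2 in each direction) beside 54.6%, and in 6 after rescaling beside 40.1%. In F/F it differed in 5 (2 higher, 3 lower) beside 46.0%, and in 6 after rescaling beside 26.8%.

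Enzymes and other proteins that act on the droplet, among them the ATGL inhibitor G0s2 in the lipolysis list, were read from 27 further genes in 4 lists. Of these 26 were tested and Plin1 was too low. With T0901317 in W/W livers 12 of 26 rose and none fell, beside 10.8% of all tested genes called, and 11 after rescaling beside 13.5%. Of 7 genes of triglyceride synthesis 4 rose, among them Mogat1, a monoacylglycerol acyltransferase (2.22, limma adjusted p = 4.95e-07), and Gpam, which starts glycerolipid synthesis (1.82, 9.62e-05). Of 7 genes of lipolysis 4 rose: the droplet lipase relative Pnpla3 by 4.53 (limma adjusted p = 3.53e-11), the ATGL coactivator Abhd5 by 1.02, ATGL itself (Pnpla2) by 0.64, and hormone-sensitive lipase (Lipe) by 0.42, the last not called after rescaling (0.35). Of 8 tested assembly genes 2 rose, the acyl-CoA synthetase Acsl3 by 1.59 and Pcyt1a by 0.55, and of 4 droplet-bound dehydrogenases 2 rose, Hsd17b11 and Hsd17b7. The median over the 26 was 0.38.

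For T0901317 in mutant livers the counts over these 26 genes lay near the share of the table as deposited. In W/F 16 were called (7 higher, 9 lower) beside 65.9% of all tested genes, and in F/F 9 (4 higher, 5 lower) beside 35.1%. After rescaling the counts were 19 in W/F (17 higher, 2 lower) beside 50.8% and 6 in F/F (all higher) beside 16.3%. The rises under both scalings included the ATGL inhibitor G0s2 in W/F (2.49 and 3.09 after rescaling), and the hydrolases Ces1d (1.64 in W/F, 1.43 in F/F) and Mgll (1.62 and 0.86). On vehicle against W/W, 20 of 26 were called in W/F (10 in each direction) beside 68.5% of all tested genes, and 21 in F/F (10 higher, 11 lower) beside 76.5%, and nothing is read from these counts. After rescaling 21 were called in each genotype, of which 19 were lower, beside 53.1% and 59.1%. Higher in both genotypes under both scalings were Hsd17b13, a droplet dehydrogenase (1.49 and 1.5 as deposited), and Tmem159, a partner of seipin (1.62 and 2.22). Lower in both genotypes under both scalings were 10 genes: Agpat2, Ces1d, Dgat2, Hsd17b11, Hsd17b7, Ldah and Lipe, and, furthest down in TPM as deposited, Mgll (-2.17 and -2.57), G0s2 (-2.97 and -1.60) and Mogat1 (-1.56 and -1.83). With the diet in W/W 9 were called (6 higher, 3 lower) beside 12.9% of all tested genes, and 11 (8 higher, 3 lower) after rescaling beside 15.4%. In W/F the diet called 15 (7 higher, 8 lower) beside 61.0%, and 19 (3 higher, 16 lower) after rescaling beside 54.9%. The F/F diet contrast called 11 (6 higher, 5 lower) beside 55.8%, and 11 (3 higher, 8 lower) after rescaling beside 47.0%.

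Over the 36 libraries the 10 genes fell into more than 1 pattern, as Pearson r on log2(TPM + 1), given as description because libraries of a group share their genotype and treatment. Plin3 and Hilpda ran closest (r = 0.903), and after subtraction of the group means r was 0.361. Plin4 and Plin5 reached 0.818 (0.416 within groups), and Plin2 and Cidea 0.804. Plin3 and Fitm1 ran opposite, at -0.716 (-0.277 within groups). Within groups the highest pair was Plin2 and Plin5, at 0.616. Among 9210 other genes with a mean of at least 5 TPM, those most like Plin3 were Maea (0.972), Myo1c (0.967) and Ctsd, the lysosomal protease cathepsin D (0.966). Hilpda was most like Fcgr1, an Fc receptor of myeloid cells (0.922), then Ctsd (0.917) and Lgals3bp (0.916). Cidec was most like Copz2 (0.929), the acyl-CoA thioesterase Acot2 (0.926) and the dehydrogenase Acadl of fatty acid oxidation (0.908). Fitm1 was most like Acaa2, the thiolase of that pathway (0.930), Sod1 (0.929) and Chpt1 (0.926). Plin2 was most like citrate synthase (Cs, 0.890), Dhrs7b (0.849) and Lrpap1 (0.848). Plin4 was most like Pak1ip1 (0.887), Zfp703 (0.879) and Fkbp5 (0.869). The nearest genes of Plin5 (Psmd4, 0.816), Fitm2 (Decr1, 0.811), Cideb (Ndufa10, 0.765) and Cidea (Rnpepl1, 0.757) were less alike.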

How the data were processed

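PolyA RNA of 36 livers, 4 in each of 9 groups of genotype and treatment taken from the labels, was sequenced by an outside provider. The authors deposited 1 table of TPM with 1 column per library, each summing to 1000000. Per the submitters' processing notes, Trimmomatic 0.36, STAR 2.5.2b, featureCounts of Subread 1.5.2 and the GRCm38 build were used, and the annotation, gene lengths, strand setting and filters are not given in the sources used here. TPM is corrected for length and total, not for a change in library composition.

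Values were fitted as log2(TPM + 1) with limma 3.58.1 in R 4.3.3 (1 mean per group, trended moderated variances, 36 libraries sharing 1 spread, two-sided, Benjamini-Hochberg over the 16638 genes that reached 1 TPM in 4 or more libraries, threshold 0.05), for 16 contrasts. The fit was also tried on simulated data, for T0901317 against vehicle in W/W only. Those data held no shift in library composition and no changed genes as low as Cidea, so the trial does not cover either case. Fold changes are on the log2(TPM + 1) scale, which understates changes of low genes such as Cidea. P-values measure the spread between mice. For rescaling, the geometric mean of each of 14786 genes served as reference, and a library was divided by its median ratio to it. Depth was estimated from the spacing of values between 0.02 and 0.4 TPM with GENCODE M21 exon lengths (93.7% to 95.6% of low genes within 0.1 of whole reads). Alternatives were a pseudocount of 0.1, a minimum of 5 TPM, no filter, rescaling, the replicate number as a block, a fit restricted to the groups of a contrast, and leaving out each library in turn. Named genes were the 10 members, the fixed pathway lists, and for each member the 3 genes of highest Pearson r. The members and lists were chosen with earlier results of these data known. Coordinates are of GRCm38, and no genome coordinates are given for Cidea.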

Additional observations from a re-analysis of the deposited data

Results flagged for a closer look

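Of all libraries, 3 stood far from the other 3 of their group, with a gap to the nearest, relative to the group's range, over Dixon's 95% limit: Cidea in W/W chow replicate 2 (0.113 TPM, the others at 0), Hilpda in W/W chow replicate 4 (3.91 TPM) and Fitm2 in F/F T0901317 replicate 2 (43.1 TPM). They were found among 89 groups of 4, and chance flags about 1 in 20. That rate does not hold for Cidea, where any value above 0 beside 3 libraries at 0 is flagged. Its 0.113 TPM stands for 0.96 reads by the depth estimate.

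Responses that differed between genotypes by limma made up 21 of 40 tested, beside 30.4% to 58.5% of all genes called in the same 4 comparisons, so the count itself is no result about the 10 genes. For T0901317, W/F minus W/W on the log2 scale, these were -2.16 for Plin2, -2.34 for Plin3, -1.96 for Cidea, -1.70 for Cidec, -2.11 for Hilpda and 1.96 for Fitm1. For F/F minus W/W they were -2.04 for Plin2, -1.36 for Plin3, -2.21 for Cidea, -1.89 for Cidec, -1.67 for Hilpda and -0.70 for Fitm2. For the diet, W/F minus W/W, they were 1.93 for Plin3, 1.73 for Hilpda, -2.42 for Fitm1 and -0.79 for Fitm2. For F/F minus W/W they were 1.67 for Plin3, -0.36 for Cideb, 1.65 for Hilpda, -1.83 for Fitm1 and -0.80 for Fitm2. Rescaling took the count to 26, beside 17.4% to 43.9% of all genes called in these comparisons after rescaling. It ended 2 calls, Cidec for T0901317 in W/F (-1.05) and Fitm2 for T0901317 in F/F (-0.38), and brought 7: for T0901317, Plin5 (0.74), Cideb (0.68) and Fitm2 (0.53) in W/F and Cideb (0.50) in F/F, and for the diet, Plin5 (-1.10) and Cideb (-0.79) in W/F and Plin4 (-1.22) in F/F.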

How the results depend on the processing

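Of 87 called values of the 10 genes, rescaling to the median gene kept 68 and ended 17. The sign changed for 2, Plin2 (-0.18) and Cidec (-0.03) in F/F against W/W on vehicle, and neither was called after rescaling. Rescaling also brought calls, which are given gene by gene above. It took the count of called genes to 2 for T0901317 in F/F, 7 in the W/F comparison with W/W on vehicle and 0 in that of F/F on chow. A fit of only the groups compared kept 80 and ended 7, leaving counts of 2 for the diet in W/W and 3 for W/F against W/W on T0901317. The share of all genes in these restricted fits is not given here. The pseudocount ended 1, no filter ended 3, and the minimum of 5 TPM kept the 77 it could test, Cidea not among them. Calls were gained too. The pseudocount brought Cidea for the diet in W/W (2.41) and Cidec in F/F against W/W on chow (0.77). The minimum of 5 TPM also brought the latter (0.69). Fits of only the groups compared brought, in F/F, Plin5 for T0901317 (-0.31) and Cidea for the diet (0.63). They also brought the difference from W/W in the T0901317 response of Fitm1 in F/F (0.71). Leaving out 1 library gave 824 values still called and 40 not, and counts of 2 to 6 in the chow comparison of F/F with W/W. It also brought calls. In that chow comparison Fitm1 was gained without W/W replicate 2 (-0.74). Cideb and Cidec were gained there without F/F replicate 2 (0.24 and 0.83) or W/W replicate 1 (0.21 and 0.92). For the diet in W/W, Fitm1 was gained without W/W chow replicate 1 (1.04) and Cidea without W/W vehicle replicate 4 (1.03). Plin4 in F/F against W/W with T0901317 was gained without F/F replicate 4 (0.77) or W/W replicate 2 (0.89). Plin5 in W/F against W/W on vehicle was gained without W/W replicate 1 (-0.49). The diet response of W/F relative to that of W/W gained Plin2 without W/F chow replicate 3 (0.63). That response gained Plin5 without W/F chow replicate 1 (-0.63) or W/W vehicle replicate 1 (-0.66). The causes of these changes were not tested. With the replicate number as a replicate block, 87 of 87 stayed called. Same-numbered libraries correlated at over 0.1 in 18 of 144 pairs (range -0.174 to 0.297), so the numbers were not taken to pair mice. Depth limits Cidea most, with at most 1 read per library in W/W and W/F on chow.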
